A study of Mus musculus with 8 samples.

Results

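The genes described here carry pyruvate into the mitochondrion, feed it into the tricarboxylic acid cycle and run the cycle itself. A list of 36 symbols was matched to the array's transcript clusters (its gene-level probe sets), of which 35 had a cluster of their own, out of 19933 genes with one. Mpc2 had none and was not analysed here. The hearts came from male C57BL/6 mice on normal chow, 6 weeks old, and each of the 8 was hybridised to its own Affymetrix Mouse Gene 1.0 ST array. There were 4 wild type mice (WT) and 4 HDAC3-deficient mice (KO), a line that the series design text names MCH3-KO. The labels do not spell that name out, and no label gives the promoter or Cre behind the deletion or the heart cells in which Hdac3 was lost. The enzyme HDAC3 removes acetyl groups from histones as part of nuclear receptor corepressor complexes.

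Pyruvate made by glycolysis enters mitochondria through a carrier and is turned into acetyl-CoA by the pyruvate dehydrogenase complex. Kinases switch this complex off by phosphorylation, and phosphatases switch it on again. The cycle then oxidises the acetyl group and yields NADH, the reduced flavin of succinate dehydrogenase and a nucleotide triphosphate. In the heart the acetyl-CoA comes mainly from fatty acids and the cycle runs at a high rate, and the malate-aspartate shuttle moves cytosolic reducing power inward.

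All values are log2 intensities, and differences are KO minus WT with n = 4 arrays per group. The array medians lay between 54.1 and 56.5 on the linear scale, and the number of arrays limits the precision. Hdac3 was 10.14, 10.04, 10.20 and 10.04 in WT hearts and 8.59, 8.59, 8.59 and 8.50 in KO hearts, 34.4% of the WT level on average, and every array matched its label. Heart muscle markers were bright, with the cardiac myosin gene Myh6 at 12.99 ± 0.02 in WT and 12.91 ± 0.01 in KO hearts (SD). Of 14950 genes tested with limma, 13.9% were lower and 10.8% higher in KO hearts at a Benjamini-Hochberg adjusted p under 0.05.

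The differences of the pathway genes between KO and WT hearts were mostly small, and 27 of 35 were negative. All 35 passed the filter on dim genes, and 18 fell, 2 rose and 15 did not pass the test. The 18 that fell are 51.4% of them, against 13.9% of all genes tested, and 24.6% of all genes were called in either direction. Many of these genes are bright, and bright genes were called more often. Among the 783 genes with a mean of at least log2 10, 23.0% were lower, 18.4% higher and 41.4% called in either direction. Of the 23 pathway genes above that level 10 fell (43.5%) and 1 rose, and of the 12 below it 8 fell (66.7%) and 1 rose. The groups did not overlap for 23 genes with KO below WT and for 3 with KO above WT, where 16.8% and 11.7% of all genes were so separated, 28.6% in all. Among the bright genes KO lay below WT without overlap for 31.2% and the groups were apart in either direction for 54.2%, and for 15 and 2 of the 23 bright pathway genes KO lay below or above WT. The median difference was -0.17 over the 35 genes and -0.01 over all genes. Ogdhl stood far from the rest, and without it the median was -0.16.

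**Figure D1:**
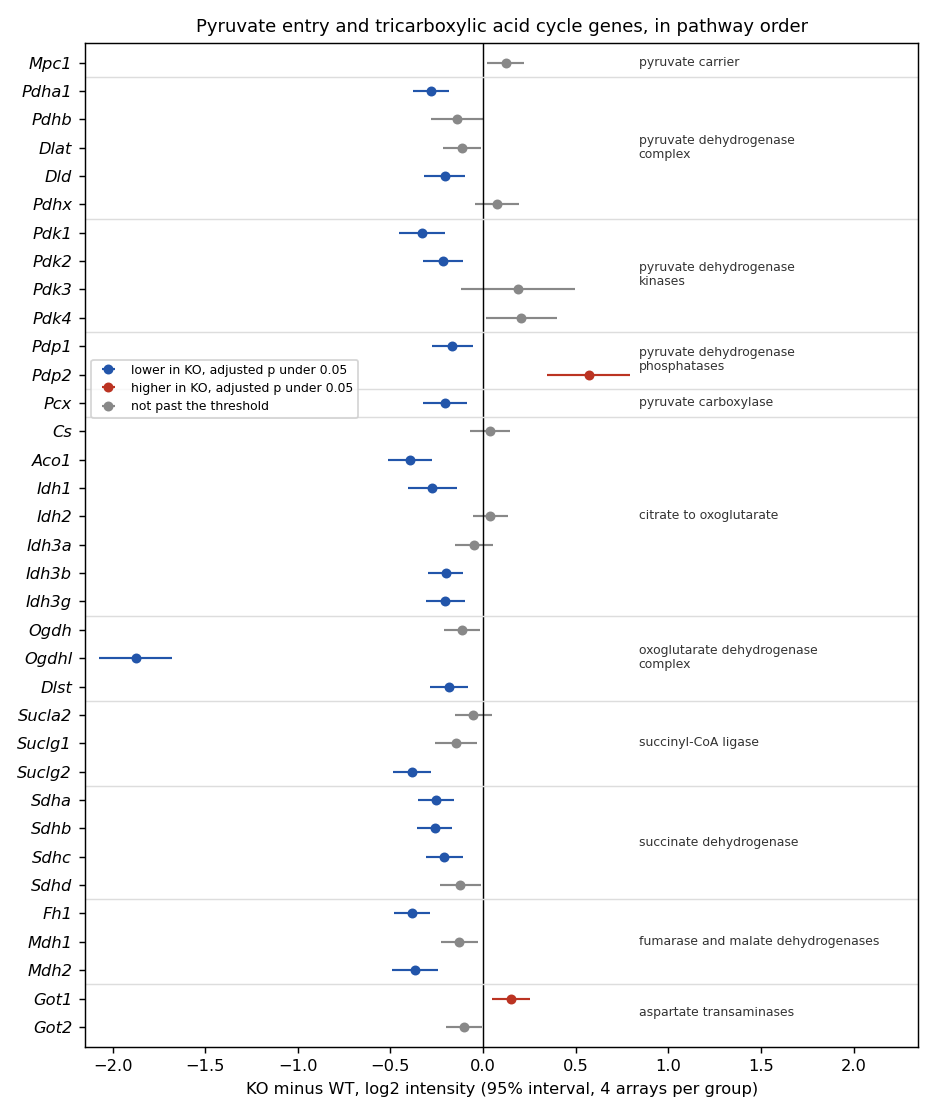
Difference between KO and WT hearts (x axis, log2 intensity) for each of the 35 genes in pathway order (y axis). Points are means over 4 arrays per group and bars are 95% intervals. Blue and red mark genes past the adjusted p threshold, and Ogdhl at -1.87 and Pdp2 at 0.57 lie farthest from 0.

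The upstream sequences of 3 genes are given here because these genes show the largest fall (Ogdhl), the largest rise (Pdp2) and a shared fall of subunits of one enzyme (Sdha). They are the 250 bases before the RefSeq start (GRCm38.p6), in the direction of transcription, with matches to any of the searched motifs in capitals. Ogdhl lies at chr14:32321769-32322018 on the plus strand, Pdp2 at chr8:104591222-104591471 on the plus strand and Sdha at chr13:74350241-74350490 on the minus strand.
Ogdhl: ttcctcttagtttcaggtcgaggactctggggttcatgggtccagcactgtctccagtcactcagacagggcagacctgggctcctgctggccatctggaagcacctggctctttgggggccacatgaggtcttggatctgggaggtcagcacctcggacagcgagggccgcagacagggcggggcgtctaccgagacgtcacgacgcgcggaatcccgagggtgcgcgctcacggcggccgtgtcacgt
Pdp2: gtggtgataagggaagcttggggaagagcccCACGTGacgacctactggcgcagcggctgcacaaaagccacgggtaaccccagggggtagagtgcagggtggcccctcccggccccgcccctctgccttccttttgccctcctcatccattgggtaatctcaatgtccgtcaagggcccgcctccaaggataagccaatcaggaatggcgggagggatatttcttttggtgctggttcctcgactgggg
Sdha: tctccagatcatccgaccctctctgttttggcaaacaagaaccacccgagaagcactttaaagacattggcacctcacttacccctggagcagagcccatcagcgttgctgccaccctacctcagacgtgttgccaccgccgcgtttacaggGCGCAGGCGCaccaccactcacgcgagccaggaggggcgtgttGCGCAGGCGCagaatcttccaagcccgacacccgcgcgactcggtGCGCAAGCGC
The motifs searched on both strands were TNAAGGTCA, the extended half-site of estrogen-related receptors, TAGGTCA, a site of monomeric nuclear receptors, the core of the NRF1 site, CCGGAAGT, read by ETS factors, and CACGTG, the E-box. A window was found for 32 of the 35 genes, with 42 windows in all because some have several starts. The NRF1 core was found for 3 genes, Sdha, Sdhd and Sucla2, in 7.14% of the 42 windows and in 3.74% of all 32851 windows. Sdha held it at 3 places, and the windows of Sdhd and Sucla2 held 1 each. Of the 16 genes that fell and had a window, 1 (Sdha) held this core. Sdhd and Sucla2 did not pass the test for a difference. An E-box was found for 4 genes, Ogdh, Pcx, Pdk2 and Pdp2, in 14.3% of the 42 windows, 3 of them of Ogdh, and in 6.02% of all windows. The Ogdh windows that begin at chr11:6292308 and chr11:6292329 overlap and hold the same site, which is counted in each. Of the 16 genes that fell and had a window, 2 held an E-box. TAGGTCA was found for Mpc1 alone, in 2.38% of the 42 windows and in 2.23% of all windows. TNAAGGTCA and CCGGAAGT matched in 0 of the 42 windows and in 1.14% and 2.88% of all windows. Ogdhl and Fh1, with large falls, held none of the 5, and nor did Sdhb, which fell by 0.26 as Sdha did. The match is a description of letters, and binding was not measured.

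At the entry of pyruvate, the carrier gene Mpc1 was 11.93 to 11.96 in the 4 WT hearts and 12.03 to 12.11 in the 4 KO hearts. The groups were apart by a narrow gap, and the difference of 0.12 (SE 0.04) did not pass the test (adjusted p = 0.0713). The number of this Mpc1 cluster lies among those of chromosome 12 genes (20 of its 20 nearest named neighbours), whereas the gene is on chromosome 17, and which copy of the sequence its probes read was not tested.

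The pyruvate dehydrogenase complex was lower in 2 of its 5 subunit genes. Pdha1, the catalytic subunit gene that the kinases act on, was 11.36, 11.38, 11.38 and 11.34 in WT and 11.10, 11.13, 11.06 and 11.04 in KO hearts. All KO hearts lay below all WT hearts, and Pdha1 fell by 0.28 in log2 units (SE 0.04, adjusted p = 0.00117), to 82.3% of the WT level. Dld, the dihydrolipoamide dehydrogenase that this complex shares with other 2-oxoacid dehydrogenases, fell by 0.21 (SE 0.05, adjusted p = 0.0114). Its WT hearts lay at 9.93 to 10.05 and its KO hearts at 9.72 to 9.84. The catalytic partner Pdhb (-0.14, adjusted p = 0.155), the acetyltransferase Dlat (-0.11, adjusted p = 0.0942) and the binding protein Pdhx (0.08, adjusted p = 0.349) did not pass. The groups overlapped for Pdhb and Pdhx but not for Dlat. Pdhx, which anchors dihydrolipoamide dehydrogenase, and Pdha1 differed in their change. The within-array difference of Pdhx and Pdha1 moved by 0.36 and did so in every KO heart (exact two-sided permutation test, p = 0.0286, the smallest that 4 against 4 arrays allow, and 0.0393 after Benjamini-Hochberg adjustment over 11 pairs).

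The genes that switch the complex moved in both directions. Pdk1 was 8.83, 8.82, 8.73 and 8.93 in WT and 8.46, 8.46, 8.52 and 8.56 in KO hearts. This kinase gene, known as a target of hypoxia signalling, fell by 0.33 (SE 0.06, adjusted p = 0.00177), with no overlap. Pdk2, a kinase isoform of broad expression, fell by 0.22 (SE 0.05, adjusted p = 0.00832), from a WT range of 11.22 to 11.33 to a KO range of 11.01 to 11.11. Pdk4, the isoform induced by fasting and fatty acids, was 11.97, 11.74, 11.76 and 12.01 in WT and 12.13, 12.22, 12.06 and 11.89 in KO hearts. KO replicate 4 lay within the WT range, and the difference of 0.21 (SE 0.09) did not pass (adjusted p = 0.115). Without that heart Pdk4 differed by 0.27 (adjusted p = 0.0412). Pdk3 was dim (5.63 to 6.05 in WT and 5.67 to 6.33 in KO) and differed by 0.19 (SE 0.14, adjusted p = 0.38).

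Of the phosphatase genes, which act against these kinases, Pdp2 had the largest rise of the pathway. It was 7.26, 7.17, 6.91 and 6.78 in WT and 7.62, 7.63, 7.48 and 7.68 in KO hearts. The WT hearts were spread more widely than the KO hearts, and the lowest KO heart still lay above the highest WT heart. Pdp2 rose by 0.57 (SE 0.10, 95% interval 0.35 to 0.79, adjusted p = 0.00226), to 148% of the WT level. Pdp1, the other phosphatase gene, fell by 0.17 (SE 0.05, adjusted p = 0.0344), from a WT range of 9.54 to 9.68 to a KO range of 9.42 to 9.46. That call is thin: it was lost in 6 of the 8 fits that left out 1 array, namely without WT replicates 1 to 3 (adjusted p = 0.0893, 0.0715 and 0.0505) and KO replicates 1 to 3 (0.0799, 0.0704 and 0.081). The difference of Pdp2 and Pdp1 within an array went from -2.58 ± 0.16 in WT to -1.85 ± 0.07 in KO hearts (SD, n = 4, exact permutation p = 0.0286, adjusted 0.0393), a shift of 0.74 seen in 4 of 4 KO hearts. For Pdk4 against Pdk2 the shift was 0.42, with overlapping arrays (exact permutation p = 0.0571, adjusted 0.0698), and for Pdk1 against Pdk2 it was -0.11 (exact permutation p = 0.0857, adjusted 0.0943). Pcx, the pyruvate carboxylase that refills oxaloacetate, fell by 0.21 (SE 0.05, adjusted p = 0.0164). Its WT hearts lay at 7.23 to 7.40 and its KO hearts at 7.06 to 7.16, and without KO replicate 2 its adjusted p was 0.0531.

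**Figure D2:**
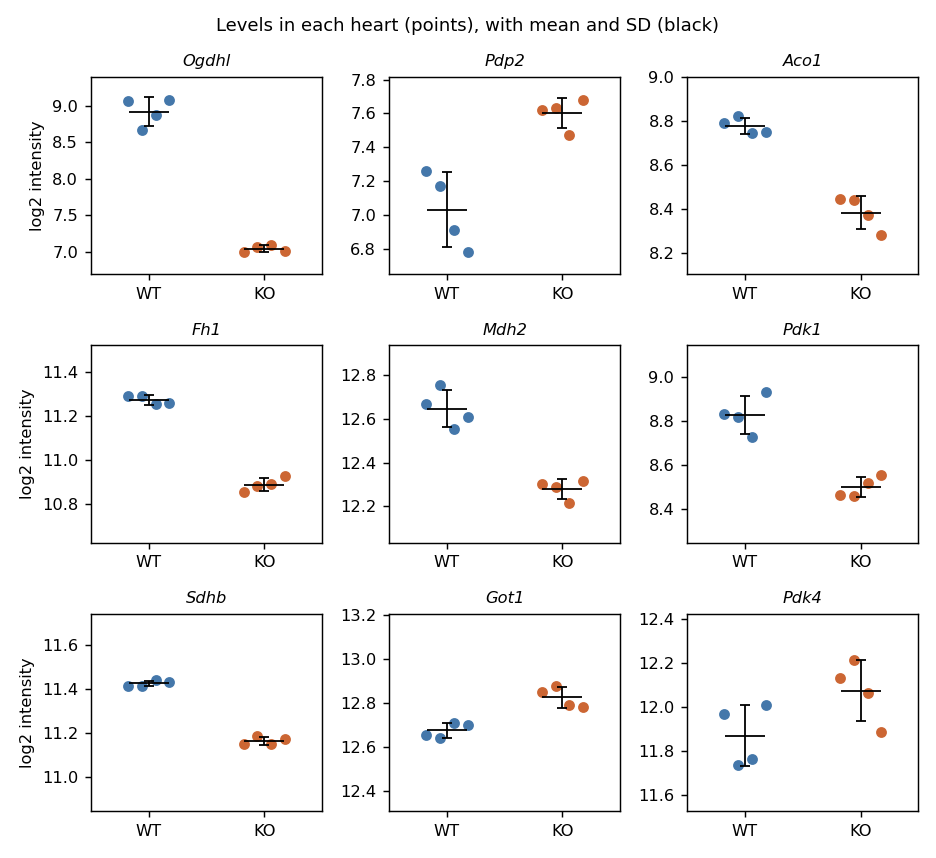
Log2 intensity (y axis) of 9 genes in each of the 4 WT and 4 KO hearts (points), with the group mean and SD in black. Each panel has its own range and does not start at 0. Ogdhl drops from between 8.66 and 9.08 to between 7.001 and 7.09, while the Pdk4 groups overlap.

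From citrate to oxoglutarate, 4 of 7 genes fell and 0 rose. Citrate synthase (Cs) opens the cycle, and its enzyme activity, which was not measured here, is often used as a measure of mitochondrial content. Its RNA was 12.21, 12.28, 12.14 and 12.19 in WT and 12.27, 12.25, 12.23 and 12.21 in KO hearts. The groups overlapped fully, with a difference of 0.04 (SE 0.05, 95% interval -0.07 to 0.14, adjusted p = 0.659). Aco1, the cytosolic aconitase that also serves as an iron regulatory protein, was 8.79, 8.82, 8.74 and 8.75 in WT and 8.44, 8.44, 8.37 and 8.28 in KO hearts. It fell by 0.39 (SE 0.05, adjusted p = 0.000408), to 76.1% of the WT level, and no KO heart reached the WT range. Idh1, the cytosolic NADP-dependent isocitrate dehydrogenase, fell by 0.27 (SE 0.06, adjusted p = 0.00757), from a WT range of 8.88 to 8.94 to a KO range of 8.48 to 8.73. Its mitochondrial counterpart Idh2 differed by 0.04 (SE 0.04, 95% interval -0.06 to 0.14, adjusted p = 0.573). The change of Idh2 and Idh1 was unequal, by 0.31 within arrays and in 4 of 4 KO hearts (exact permutation p = 0.0286, adjusted 0.0393).

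The NAD-dependent isocitrate dehydrogenase of the cycle is built from a catalytic subunit (Idh3a) and regulatory ones (Idh3b and Idh3g). Idh3b was 12.09, 12.12, 12.09 and 12.15 in WT and 11.91, 11.91, 11.91 and 11.92 in KO hearts, and fell by 0.20 (SE 0.04, adjusted p = 0.00632). Idh3g fell by 0.20 as well (SE 0.05, adjusted p = 0.00931), from a range of 12.38 to 12.42 to one of 12.16 to 12.28. Both regulatory subunit genes were lower in every KO heart than in any WT heart. Idh3a differed by -0.05 (SE 0.05, 95% interval -0.15 to 0.05, adjusted p = 0.502), with overlap, and centring the arrays on heart muscle markers or on oxidative phosphorylation genes turned its sign (0.024 and 0.035). Within arrays Idh3a moved by 0.15 relative to Idh3b, in 4 of 4 KO hearts (exact permutation p = 0.0286, adjusted 0.0393).

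The oxoglutarate dehydrogenase complex held the largest change of the pathway. Ogdhl, a paralog of the catalytic subunit best known from brain, was 9.07, 8.66, 8.87 and 9.08 in WT and 7.001, 7.07, 7.09 and 7.01 in KO hearts. The KO hearts lay close together, the WT hearts were spread more widely, and the gap between the groups was far wider than either spread. Ogdhl fell by 1.87 (SE 0.09, 95% interval -2.07 to -1.68, adjusted p = 7.11e-07), to 27.3% of the WT level. Its difference ranked 6 from the bottom among the 14950 genes tested. Ogdh, the main catalytic subunit gene of heart, was 12.21 to 12.27 in WT and 12.10 to 12.14 in KO hearts. These groups were also apart, but the difference of -0.11 (SE 0.04, 95% interval -0.21 to -0.02) did not pass (adjusted p = 0.0869). The change of the paralogs differed by -1.76 within arrays, from -3.32 ± 0.21 to -5.08 ± 0.05 (Ogdhl minus Ogdh, SD, n = 4, exact permutation p = 0.0286, adjusted 0.0393). Dlst, the succinyltransferase at the core of the complex, fell by 0.19 (SE 0.05, adjusted p = 0.0147), from a range of 10.57 to 10.63 to one of 10.35 to 10.45. Dld, described above, completes this complex too.

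Succinyl-CoA ligase pairs a common subunit (Suclg1) with a nucleotide-specific one, for ATP (Sucla2) or GTP (Suclg2). Suclg2 was 9.89, 9.88, 9.79 and 9.84 in WT and 9.45, 9.51, 9.48 and 9.43 in KO hearts on its brighter cluster, and fell by 0.38 (SE 0.05, adjusted p = 0.000221). The number of that cluster lies among those of X chromosome genes (19 of its 20 nearest named neighbours), whereas Suclg2 is on chromosome 6, and which copy of the sequence its probes read was not tested. The dimmer Suclg2 cluster, whose number lies among those of chromosome 6 genes, was 7.46 to 7.65 in WT and 7.31 to 7.46 in KO hearts. There the difference was -0.15 (SE 0.06, adjusted p = 0.139 over 21631 clusters), which did not pass. Sucla2 differed by -0.05 (SE 0.05, 95% interval -0.15 to 0.05, adjusted p = 0.466), and Suclg1 by -0.15 (SE 0.05, adjusted p = 0.0588, and 0.0402 without KO replicate 4). Within arrays the difference of Suclg2 and Sucla2 moved by -0.33 with the brighter Suclg2 cluster and by -0.21 with the mean of both (exact permutation p = 0.0286, adjusted 0.0393 in either case). With the dimmer cluster alone it moved by -0.093, with overlapping groups (exact permutation p = 0.0571, adjusted 0.0698), so the unequal change of this pair rests on the brighter cluster. Sucla2 changed sign, to 0.022 and 0.033, when arrays were centred on heart muscle markers or on oxidative phosphorylation genes.

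Succinate dehydrogenase, which is both an enzyme of the cycle and complex II of the respiratory chain, was lower in 3 of its 4 subunit genes. Sdha, the flavoprotein, was 12.16, 12.10, 12.17 and 12.17 in WT and 11.90, 11.90, 11.89 and 11.89 in KO hearts. Sdhb, the iron-sulphur subunit, was 11.42, 11.41, 11.44 and 11.43 in WT and 11.15, 11.19, 11.15 and 11.17 in KO hearts. Both had spreads far smaller than the gap between the groups. Sdha fell by 0.26 (SE 0.04, adjusted p = 0.00178) and Sdhb fell by 0.26 (SE 0.04, adjusted p = 0.00135). The within-array difference of Sdhb and Sdha was -0.72 ± 0.02 in WT and -0.73 ± 0.02 in KO hearts (SD, n = 4), with overlapping arrays (exact permutation p = 0.771). Of the membrane anchors, Sdhc fell by 0.21 (SE 0.05, adjusted p = 0.00722), from 11.70 to 11.80 down to 11.50 to 11.56. Sdhd differed by -0.12 (SE 0.05, adjusted p = 0.11), with 1 WT heart (11.18) inside the KO range of 11.08 to 11.19.

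The steps from fumarate to oxaloacetate were lower too. Fumarase (Fh1) was 11.29, 11.29, 11.25 and 11.26 in WT and 10.85, 10.88, 10.89 and 10.92 in KO hearts. It fell by 0.39 (SE 0.04, adjusted p = 0.000147), to 76.5% of the WT level. The mitochondrial malate dehydrogenase Mdh2 was 12.67, 12.75, 12.55 and 12.61 in WT and 12.30, 12.29, 12.21 and 12.31 in KO hearts. It fell by 0.37 (SE 0.06, adjusted p = 0.000926), to 77.6%. The KO and WT hearts did not overlap for either gene. Mdh1, the cytosolic form that works in the malate-aspartate shuttle, differed by -0.13 (SE 0.04, adjusted p = 0.0595), with WT hearts at 12.22 to 12.31 and KO hearts at 12.10 to 12.15. The within-array difference of Mdh2 and Mdh1 moved by -0.24 in 4 of 4 KO hearts, from 0.39 ± 0.10 to 0.16 ± 0.06 (SD, n = 4, exact permutation p = 0.0286, adjusted 0.0393).

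The aspartate transaminases, which complete that shuttle, differed in sign. Got1, the cytosolic form, was 12.65, 12.64, 12.71 and 12.70 in WT and 12.85, 12.88, 12.79 and 12.78 in KO hearts. It rose by 0.15 (SE 0.05, adjusted p = 0.0409), but this call held without KO replicate 4 only and was lost without any other single array (adjusted p = 0.0569 to 0.115). With quantile normalisation the difference was 0.10 (adjusted p = 0.173). Got2, the mitochondrial form, was 12.75 to 12.79 in WT and 12.62 to 12.69 in KO hearts, a difference of -0.10 (SE 0.04, adjusted p = 0.11). Each gene's groups were apart, Got1 upward and Got2 downward. The difference of Got2 and Got1 within arrays went from 0.10 ± 0.05 to -0.16 ± 0.03 (SD, n = 4), a shift of -0.26 in 4 of 4 KO hearts (exact permutation p = 0.0286, adjusted 0.0393).

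**Figure D3:**
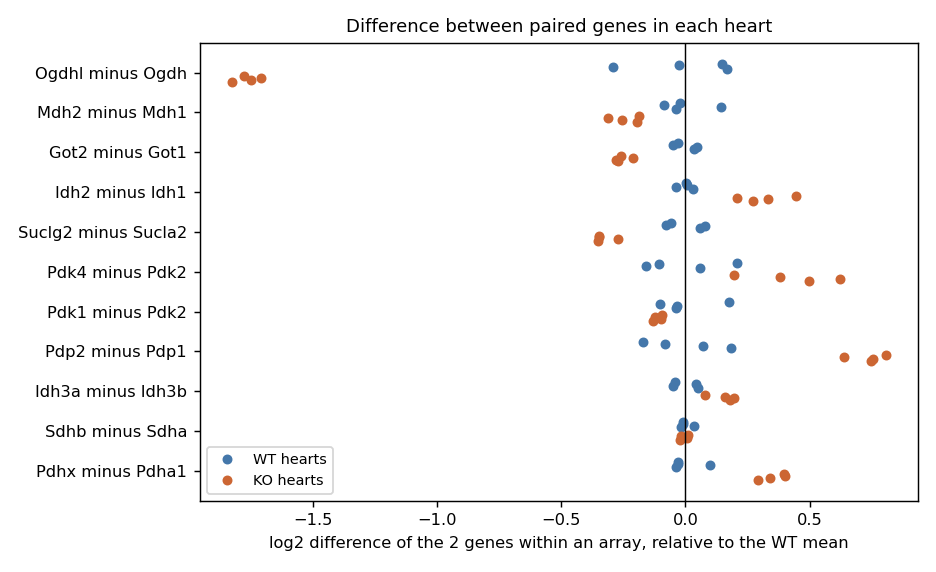
Difference of the paired genes within each array (x axis, log2), shown relative to the WT mean, for 11 pairs of paralogs or subunits (y axis). Points are single hearts, WT in blue and KO in orange, and Suclg2 is read on its brighter cluster. The 8 pairs with an adjusted p of 0.0393 have no overlap of the groups, while the points for Sdhb minus Sdha lie on each other.

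Other genes around the cycle were read from a second list of 51 symbols, of which 47 were tested. In it 17 genes fell (36.2%) and 6 rose (12.8%), with a median of -0.12. Over all genes tested 13.9% fell and 10.8% rose, so the share that rose was near that of all genes. Adhfe1, a mitochondrial transhydrogenase that couples hydroxybutyrate to oxoglutarate, was 10.33, 10.36, 10.37 and 10.36 in WT and 9.35, 9.32, 9.35 and 9.42 in KO hearts. It fell by 0.99 (SE 0.05, adjusted p = 6.03e-07), to 50.3% of the WT level, with all KO hearts far below all WT hearts. Of 8 genes of cycle partners and side reactions 5 fell and 0 rose, among them the methylmalonyl-CoA mutase Mmut (-0.36), the nicotinamide nucleotide transhydrogenase Nnt (-0.29) and the succinic semialdehyde dehydrogenase Aldh5a1 (-0.35).

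Of 13 genes of lipoate synthesis, iron-sulphur supply and complex II assembly, 3 fell (23.1%) and 1 rose (7.69%). The shares over all genes were 13.9% and 10.8%, and the distance of this short list from them was not tested. Glrx5, a glutaredoxin of iron-sulphur cluster assembly, fell by 0.59 (SE 0.05, adjusted p = 1.3e-05), Nfu1, which delivers such clusters to lipoate synthase, fell by 0.35, and the complex II assembly factor gene Sdhaf1 fell by 0.28. Oxsm, of mitochondrial fatty acid synthesis, rose by 0.20 (adjusted p = 0.00855). The lipoate synthase gene Lias (0.15, adjusted p = 0.175) and the lipoyl transferase gene Lipt1 (-0.000625, adjusted p = 0.995), did not pass, and these 3 genes were named after their values were seen.

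Genes that feed or drain the cycle moved both ways, 5 of 15 down and 5 up (33.3% each). Over all genes 13.9% fell and 10.8% rose. The acetate-activating enzyme Acss1 (-0.47), the alanine transaminase Gpt2 (-0.52) and the malic enzyme Me3 (-0.26) fell. A second mitochondrial malic enzyme, Me2, rose by 0.43 (SE 0.06, adjusted p = 0.000504), and so did Slc16a1, a carrier of lactate and pyruvate across the cell membrane, by 0.24. Of 8 carriers of cycle intermediates and of coenzyme A, 2 fell and 0 rose, and of 3 mitochondrial deacylase genes 2 fell.

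Other energy pathways had smaller shares of falls than the cycle genes. Over all genes tested 13.9% fell and 10.8% rose, and among those with a mean of at least log2 10, 23.0% fell. Among 84 tested genes of oxidative phosphorylation (subunits and some assembly factors, taken by symbol) 18 fell (21.4%) and 1 rose, with a median of -0.08. That share of falls is no larger than the 23.0% of the bright genes. Among 18 genes of beta-oxidation 6 fell (33.3%) and 0 rose, with a median of -0.06. Among 12 glycolysis genes 3 fell and 4 rose, with a median of -0.02. The differences between these lists were not tested. The hearts did not rank alike on them. Averaged over members relative to the WT mean, the pathway stood at -0.16, -0.16, -0.16 and -0.20 in KO replicates 1 to 4, and the oxidative phosphorylation genes at -0.12, -0.12, -0.097 and -0.0015. Without Ogdhl the cycle genes stood at -0.11, -0.11, -0.11 and -0.15, which in KO replicates 1 and 2 is no lower than the oxidative phosphorylation genes. With or without Ogdhl, KO replicate 4 had the lowest mean of the cycle genes, while its oxidative phosphorylation mean lay within the WT range of -0.01 to 0.01. Without that heart 30 oxidative phosphorylation genes fell, and 19 cycle genes.

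**Figure D4:**
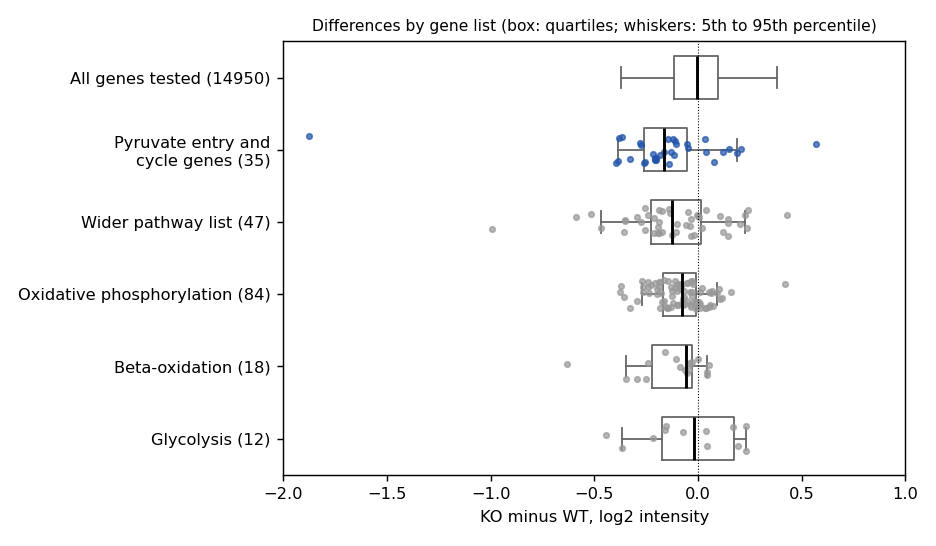
KO minus WT difference (x axis, log2 intensity) of single genes (points) in 5 lists, and the distribution over all genes tested without points (y axis, number of genes in brackets). Boxes show the median and quartiles and whiskers the 5th to 95th percentile. Medians run from -0.17 for the cycle genes to -0.01 for all genes.

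A whole heart mixes cell types, and fewer cells of a type and less RNA per cell cannot be told apart. Of 16 tested markers of macrophages and other myeloid cells, 15 rose and 0 fell, with a median of 1.32. Their summed linear intensity was 3926 to 4516 in WT and 8964 to 11295 in KO hearts. Of 18 heart muscle markers 6 fell and 1 rose, with a median of -0.08, and their sum was 105469 to 107477 in WT and 100639 to 101943 in KO hearts. Of these 18, Ryr2 fell most, by 0.53 (adjusted p = 3.27e-05). The 1 that rose, Tcap, named after its values were seen, rose by 0.46 (adjusted p = 0.00266). The sum of the 35 pathway genes was 91924 to 93689 in WT and 84691 to 86827 in KO hearts. Of 8 fibroblast markers 3 rose (37.5%), of 7 endothelial markers 1 rose (14.3%), and 0 of either fell, where 10.8% of all genes rose. Of the 4 smooth muscle, 3 adipocyte and 2 lymphocyte markers tested, 0 were called by limma, and 1, the smooth muscle actin gene Acta2, had an unadjusted p under 0.05 (0.0133). The 1 red cell marker tested, the erythroid heme synthesis gene Alas2, fell by 0.33 (SE 0.06, adjusted p = 0.00172), from a range of 7.33 to 7.42 to one of 6.96 to 7.15. When each array was centred on its heart muscle markers, 12 pathway genes fell and 4 rose. The calls of Dld, Pdp1, Pcx, Idh3g, Dlst and Sdhc ended there, with differences of -0.13 to -0.091 (adjusted p = 0.0501 to 0.196). When it was centred on oxidative phosphorylation genes, 8 fell and 3 rose. The same 6 calls and those of Pdk2, Idh1, Idh3b and Sdha ended, with differences of -0.19 to -0.081 (adjusted p = 0.0559 to 0.375). This centring also raised the SE of these 10 genes, for Sdha from 0.043 to 0.059 and for Pdp1 from 0.050 to 0.063. The part of the myeloid, fibroblast and red cell markers in the falls of the pathway was not tested.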

How the data were processed

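Total RNA of 8 hearts, 4 WT and 4 KO, was extracted with Trizol and read on 1 array each, per the labels' protocols. The deposited table holds 1 linear intensity per transcript cluster and array. Partek and RMA, an array normalisation method, are named in the submitters' processing notes without versions, and no source used here gives the order of steps or any filter. The labels number biological replicates.

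Log2 of the deposited intensities was taken with no offset. Of 27541 clusters 21631 carried 1 gene symbol, 1317 several and 4593 none, in a platform gene table that can be old. The brightest single-gene cluster stood for each gene, and genes whose mean lay under the 25th percentile (log2 4.50) were left out, which kept 14950. KO and WT were compared with limma 3.58.1 (lmFit and eBayes, 6 residual degrees of freedom, two-sided) in R 4.3.3, with Benjamini-Hochberg adjustment over all 14950 genes and a threshold of 0.05. The script was tested on simulated data with 100 genes changed by 1.25-fold, of which 48% were recovered, and 100 by 1.5-fold, of which 88% were. Of the genes called there 6.85% were false calls. In the hearts 24.6% of 14950 genes were called, a far larger share than was changed in the simulation. Its recovery therefore does not carry over to the fit of the hearts. Pairs of genes were compared by an exact two-sided permutation test over 70 divisions of the arrays, adjusted over 11 pairs. Pairs at the smallest possible p (0.0286) share the same adjusted p (0.0393). That value depends on how many pairs reached the smallest p and does not rank them. Upstream windows came from RefSeq (GRCm38.p6). Alternatives were the scaling, offset, dim filter, variance model, array weights, cluster rule, threshold, replicate block, list centring and leaving out each array.

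The genes named were all members measured, Hdac3, up to 12 called genes of the wider list with the smallest p, and the first or defining markers of a cell type, except where said. The members and lists were chosen with earlier results of these data known. Arrays with the same replicate number did not deviate together (correlations of -0.04, 0.03, -0.04 and 0.08), so the numbers were not taken to pair the hearts.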

Additional observations from a re-analysis of the deposited data

Results flagged for a closer look

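For 2 of the 70 gene and group combinations examined, 1 array stood far from the other 3 of its group. Pdp1 in KO replicate 3 was 9.42, while the other KO hearts lay at 9.45 to 9.46. Idh3g in WT replicate 3 was 12.38, while the other WT hearts all lay at 12.42. Both gaps are small on the log2 scale, and chance alone flags about 1 in 20 such groups.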

How the results depend on the processing

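Of the 20 called pathway genes, 9 passed under every alternative run: Pdha1, Pdk1, Aco1, Ogdhl, Suclg2, Sdhb, Fh1 and Mdh2, which fell, and Pdp2, which rose. The dimmer Suclg2 cluster, an alternative chosen after seeing the data, gave -0.15 and did not pass, nor did its pair with Sucla2 (-0.093), also added after seeing the data. Over the 35 genes, 700 alternative values held 627 on the same side of the threshold, 42 that lost a call, 27 that gained one and 4 that changed sign. The 4 were Idh3a (0.035 and 0.024) and Sucla2 (0.033 and 0.022), after centring on oxidative phosphorylation genes and on heart muscle markers. Pathway genes called higher numbered 1 rather than 2 with quantile normalisation, array-median centring, no dim filter, the replicate block or a threshold of 0.01, 4 with heart muscle centring, and 1 to 3 with 1 array left out. Genes called lower numbered 8 with oxidative phosphorylation centring. The replicate block kept 18 of the 20 calls and lost Got1 (adjusted p = 0.0946) and Pdp1 (adjusted p = 0.0616).

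At a threshold of 0.01, 961 genes were higher and 1249 lower over all genes, and 14 pathway genes were lower. In the wider list 11 were lower, 6 in oxidative phosphorylation and 3 in beta-oxidation, with 2 glycolysis genes higher. Oxidative phosphorylation genes called lower numbered 32 with an intensity trend and robust variances, 32 with array weights and 13 to 30 with 1 array left out. In the same settings 24, 20 and 16 to 19 pathway genes were lower. Oxidative phosphorylation genes called higher numbered 2 with the trend and with the mean of a gene's clusters. Glycolysis genes called higher numbered 2 to 4 with 1 array left out, 2 of them without WT replicate 4. The cause of these shifts was not tested. With 4 arrays per group, small changes of this size are partly missed, and the linear range of the arrays was not tested.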
